A study of Mus musculus with 12 samples.

Results

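The transcripts of 9 genes of the Hedgehog pathway were followed across 12 samples of a study of endoglin and the hair follicle cycle. The genes were the ligands Shh and Ihh, the receptor Ptch1, the signal transducer Smo, the transcription factors Gli1, Gli2 and Gli3, the ligand trap Hhip and the cytoplasmic inhibitor Sufu. They were taken as every probe outside the control spots whose transcript accession maps to one of these symbols, which gave 12 probes for 9 genes out of 20659 genes named on the array. All 9 had a probe that passed the filter on dim probes, and Smo, Hhip and Sufu had 2 probes each. Each sample was labelled with Cy5 and hybridised against a Cy3-labelled pool of all conditions, in 1 orientation throughout. Values are log2 ratios of sample over pool unless a Cy5 level is named.

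Hedgehog ligands bind Ptch1 and release Smo, which then turns Gli proteins from repressors into activators inside the primary cilium. In the growing hair follicle, Shh is made by the epithelial matrix and acts on neighbouring epithelium and on the dermal papilla, and it is needed for a new follicle to grow down. Gli1, Ptch1 and Hhip are direct targets that rise with pathway activity, and Ptch1 and Hhip also restrain it by binding the ligand.

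The 12 arrays held 1 array for each combination of genotype, day and treatment level. The genotypes were wt and Eng+/-, which carries 1 altered copy of Eng, the gene of the Tgf-β and Bmp co-receptor endoglin. The days were 50 and 90, and the treatment levels were no named treatment, clp and tpa; the labels do not say what the days count or what clp and tpa mean. Each treatment level had its own slide of 4 arrays, so treatment and slide cannot be told apart, while both genotypes and both days lay on every slide. No group had replicates. In the model of genotype and the combinations of treatment and day, the spread measures how Eng+/- minus wt differs among those combinations. The errors of the treatment and day comparisons thus cover no variation that both genotypes share, such as that between slides. Interactions with genotype were tested against what remained after fitting them. Both wt arrays with no named treatment have the word pool in their titles, without a statement of what was pooled.

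The labels name E14 embryonic stem cells as the material, whereas the title names the hair follicle. Of 5 embryonic stem cell markers, Nanog, Utf1 and Dppa5a were above background on 12 arrays, Pou5f1 on 1 and Zfp42 on 0. Of 8 measured genes of the hair shaft with its inner sheath, 7 were above background on all 12 arrays, as were all 7 of the hair matrix. Eng had a lower ratio on the array labelled Eng+/- in 5 of 6 pairs and a higher one in the tpa pair at 50 d (-0.49 against -1.13), and where its probe lies relative to the altered part of Eng is not given. Genotypes below are therefore those of the labels. Cy5 was above background on 65.67 to 77.68% of the spots of an array.

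Shh, the ligand of the growing follicle, was present on 9 arrays and near background on 3. Its probe was spotted 10 times on each array. Cy5 was above background on 10 of 10 spots on each of the 9 arrays, on 1 of 10 on the Eng+/- array with no named treatment at 90 d, and on 0 of 10 on both tpa arrays at 50 d. The reference pool itself was dim for Shh (Cy3 above background on at most 5 of 10 spots), which squeezes its ratios towards 0. The Cy5 level, quantile-normalised between arrays on a log2 scale, is therefore given first.

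With no named treatment, the Shh Cy5 level was 8.63 in wt and 6.19 in Eng+/- at 90 d, and 7.78 in wt and 8.78 in Eng+/- at 50 d. In clp it was 8.97 in wt and 7.42 in Eng+/- at 90 d, and 9.43 in wt and 8.37 in Eng+/- at 50 d. In tpa it was 8.16 in wt and 8.45 in Eng+/- at 90 d, and 6.11 in wt and 6.01 in Eng+/- at 50 d. The 3 low arrays lay between 6.01 and 6.19 and did not overlap the other 9, which began at 7.42. The SD over the 10 spots of an array was at most 0.34 on the log2 Cy5 scale, which covers the spotting only.

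Because Shh was not well above background on those 3 arrays, the differences there are bounds on the per-channel Cy5 scale after loess and Aquantile. These bounds set the bright array against the higher of the dim signal and the lowest signal above background, and without dye swaps they are open to dye bias. The dim signal was the higher in each case, so each bound is the ratio to that measured dim signal. With no named treatment at 90 d, Shh was at least 3.38-fold higher in wt than in Eng+/-. Among the Eng+/- arrays with no named treatment it was at least 3.48-fold higher at 50 d than at 90 d. In tpa it was at least 3.56-fold higher at 90 d than at 50 d over both genotypes, with at least 3.82-fold in Eng+/- and at least 3.32-fold in wt. The order of days was thus opposite in tpa and in the Eng+/- arrays with no named treatment. In wt with no named treatment the Cy5 level was 8.63 at 90 d and 7.78 at 50 d.

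Ihh, the paralogous ligand best known from growing cartilage, was nearly flat. Its log2 ratio lay between 0.33 and 0.52 on the 12 arrays, a range of 0.19 where the median feature ranged over 0.8. Cy3 was above background on 0 arrays for Ihh, so a change in it would have been squeezed in the same way as in Shh.

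Gli1, the transcriptional activator and readout of pathway activity, was low on the same 3 arrays as Shh. With no named treatment its log2 ratio was 0.29 in wt and -1.50 in Eng+/- at 90 d, and -0.10 in wt and 0.83 in Eng+/- at 50 d. In clp it was 0.57 in wt and 0.55 in Eng+/- at 90 d, and 0.62 in wt and 0.27 in Eng+/- at 50 d. In tpa it was -0.20 in wt and 0.03 in Eng+/- at 90 d, and -1.33 in wt and -1.47 in Eng+/- at 50 d. The 3 low arrays stood between -1.50 and -1.33 and the other 9 between -0.20 and 0.83. Over all features, those 3 arrays correlated with each other at 0.957 to 0.973. The share of features that split them off in the same way is not given, so the split of Gli1 is not shown to be particular to it. The same holds for Shh, Smo, Gli2 and Ptch1. Gli1 was above background in both channels on all 12 arrays, so its ratios are measured on both sides. Its range of 2.33 was larger than that of 95.5% of the features tested.

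Smo and Gli2 were lowest on the same 3 arrays, with smaller steps. Smo, the membrane protein that passes the signal on, stood at -0.20, -0.14 and -0.07 there and between 0.26 and 0.63 on the other 9. Its second probe did not separate these arrays: it gave -2.49, -2.75 and -2.17 there and -2.61 to -1.75 on the rest. Gli2, the main activator downstream of Smo, stood at 0.37, 0.29 and 0.49 on the 3 arrays and between 0.75 and 1.25 on the others.

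Ptch1, the receptor and a direct target, had its 3 lowest values on those arrays too, with a small step to the next. These were -1.71 in the Eng+/- array with no named treatment at 90 d, and -1.77 and -1.75 in the Eng+/- and wt tpa arrays at 50 d, next to -1.53 in wt tpa at 90 d. The highest Ptch1 values, from -1.07 to -1.02, belonged to both wt clp arrays and the Eng+/- clp array at 50 d, next to -1.08 in wt with no named treatment at 50 d. Its Cy5 level was low (6.48 to 7.88), where the offset of the background correction squeezes ratios.

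**Figure D1:**
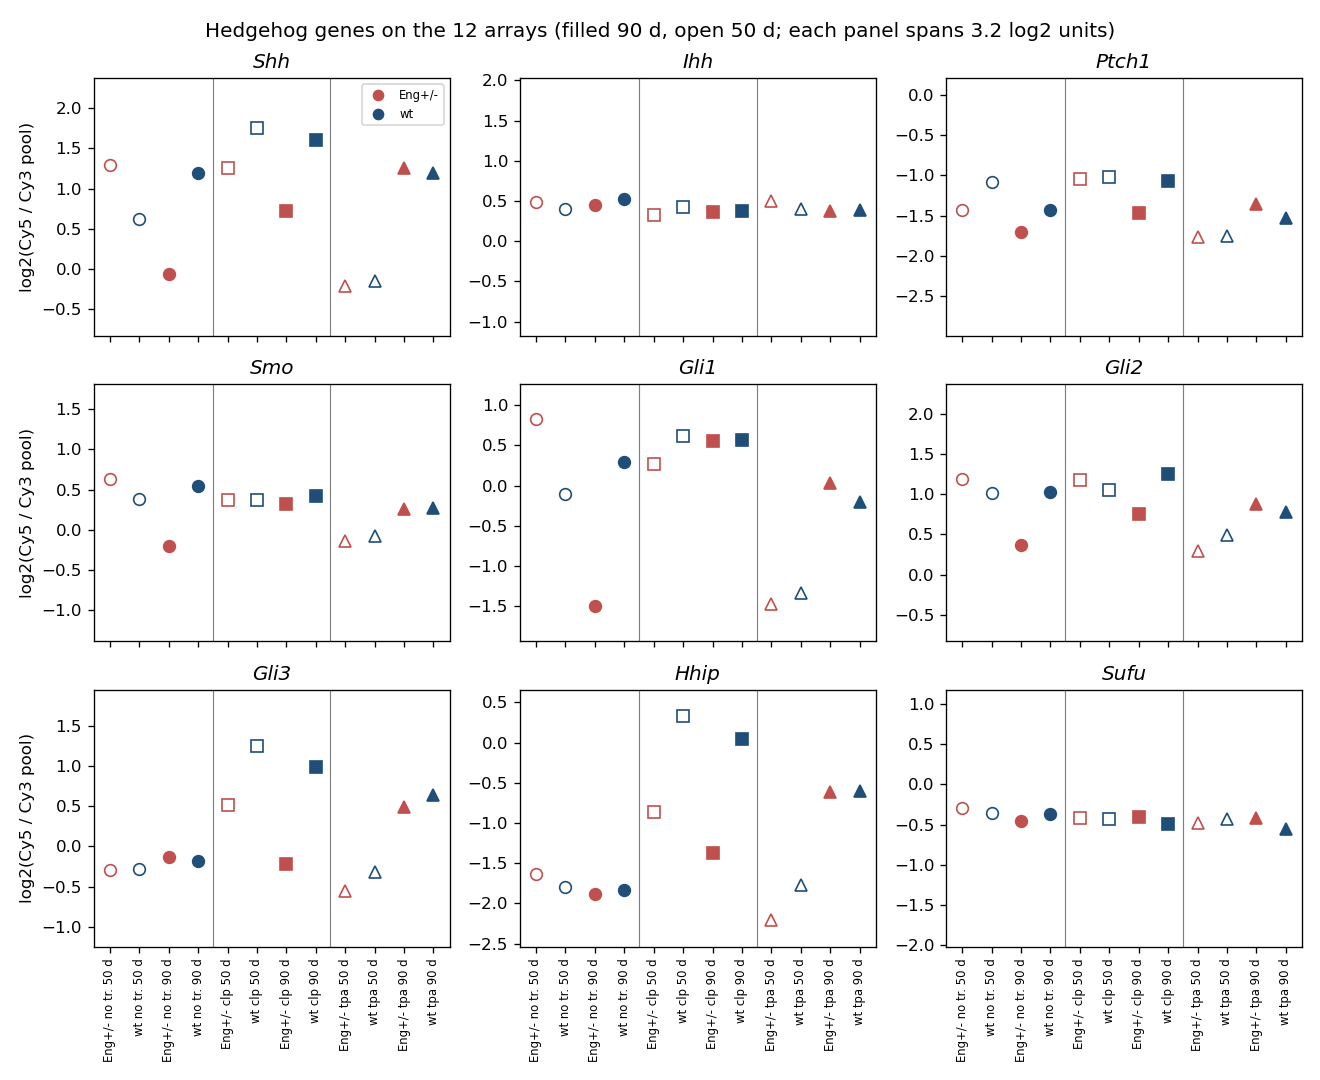
Log2 ratio of sample over reference pool for the 9 genes on the 12 arrays, grouped by treatment level on the x axis (red Eng+/-, blue wt, filled 90 d, open 50 d, 1 point an array). Shh, Smo, Gli1 and Gli2 are lowest on the Eng+/- array with no named treatment at 90 d and both tpa arrays at 50 d. Gli3 and Hhip are low on those arrays too, and also on the other arrays with no named treatment and the Eng+/- clp array at 90 d.

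Hair follicle markers moved with this 3-array pattern. The mean log2 ratio of those 8 hair shaft and inner sheath genes was -6.14 to -4.86 on the 3 arrays and -1.55 to 0.70 on the other 9. The 7 hair matrix genes averaged -1.69 to -1.54 against -0.74 to 0.62. The 4 melanocyte genes averaged -2.31 to -2.19 against -0.71 to 1.36, and the 6 cell cycle genes -0.45 to -0.25 against -0.08 to 1.20. The 8 dermal papilla genes, which include those of the cells that receive the ligand, ranged from -0.36 to -0.28 on the 3 arrays and from -0.27 to 0.10 on the rest. In bulk RNA, fewer cells of a type and less RNA per cell cannot be told apart, and the part of these markers in the values of the Hedgehog genes was not tested. Over all 25085 features, the Eng+/- array with no named treatment at 90 d correlated with both tpa arrays at 50 d at 0.957 and 0.969, and with the other arrays of its own slide at 0.689 to 0.778.

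Hhip and Gli3 followed a different pattern from Gli1, Smo and Gli2. Hhip, the membrane-anchored trap that takes ligand away from Ptch1, was low on every array with no named treatment, at -1.83 in wt and -1.88 in Eng+/- at 90 d and at -1.79 in wt and -1.64 in Eng+/- at 50 d. In clp it was 0.04 in wt and -1.37 in Eng+/- at 90 d, and 0.33 in wt and -0.86 in Eng+/- at 50 d. In tpa it was -0.60 in wt and -0.61 in Eng+/- at 90 d, and -1.77 in wt and -2.21 in Eng+/- at 50 d. The 4 arrays with no named treatment spanned 0.24 for Hhip, while Gli1 spanned 2.33 over those same 4 arrays. The Eng+/- clp array at 90 d had Hhip at -1.37 and Gli1 at 0.55.

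Gli3, the member of the Gli family that acts mainly as a repressor when no ligand is present, varied together with Hhip. With no named treatment it was -0.18 in wt and -0.13 in Eng+/- at 90 d, and -0.28 in wt and -0.29 in Eng+/- at 50 d. In clp it was 0.99 in wt and -0.22 in Eng+/- at 90 d, and 1.25 in wt and 0.51 in Eng+/- at 50 d. In tpa it was 0.64 in wt and 0.49 in Eng+/- at 90 d, and -0.32 in wt and -0.55 in Eng+/- at 50 d. For both genes the same 5 arrays were highest: both wt clp arrays, the Eng+/- clp array at 50 d and both tpa arrays at 90 d. The remaining 7 lay at or below -0.13 for Gli3 and at or below -1.37 for Hhip.

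Across the 12 arrays Gli3 and Hhip had a Pearson r of 0.98 and a Spearman rho of 0.80, and r was 0.95 without both arrays farthest from the Gli3 median. Over the 9 arrays on which Shh was above background, r was 0.98 for Gli3 and Hhip and 0.12 for Gli1 and Hhip. For Shh it was 0.43 with Gli1, 0.77 with Hhip and 0.80 with Gli3. On these 9 arrays Shh thus varied more with Hhip and Gli3 than with Gli1. These arrays share slides and the reference pool, and the correlations are descriptions. A second Hhip probe, above background on 6 of 12 arrays, was highest on the same 5 arrays (0.53 to 1.40) and between 0.09 and 0.38 on the other 7.

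**Figure D2:**
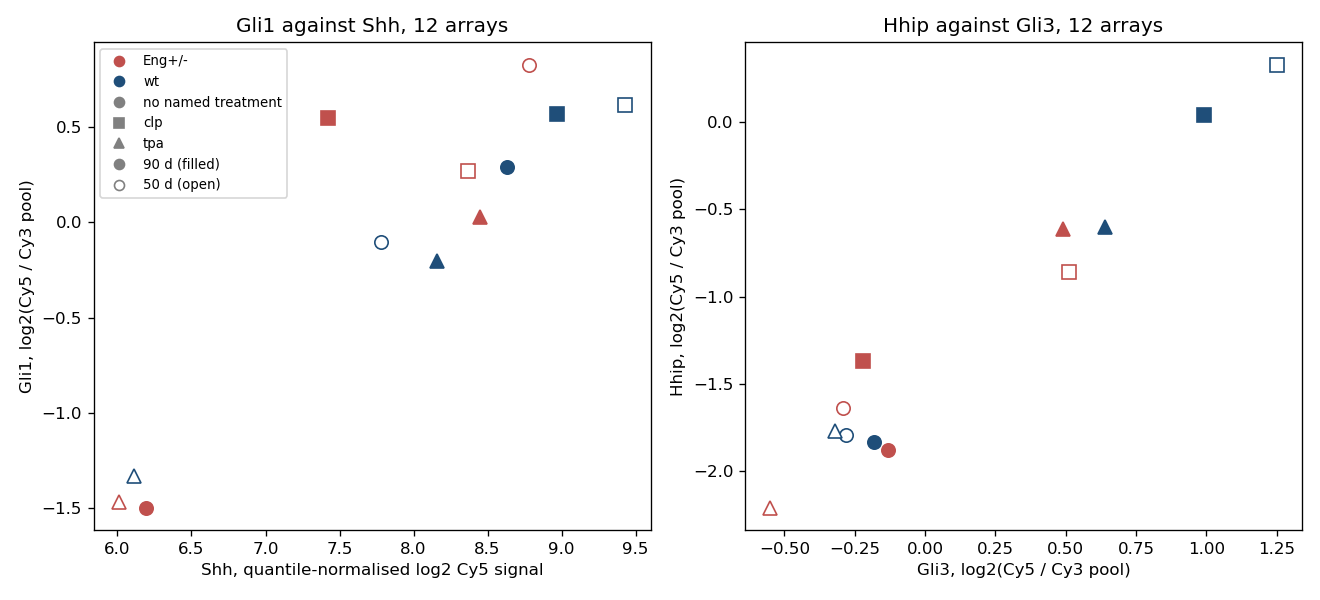
Left, Gli1 log2 ratio against the quantile-normalised log2 Cy5 level of Shh; right, Hhip against Gli3, both as log2 ratios (1 point an array; red Eng+/-, blue wt; circles no named treatment, squares clp, triangles tpa; filled 90 d, open 50 d). On the left 3 arrays stand apart at a Gli1 ratio of -1.33 or below; on the right the 12 arrays lie along 1 line with r of 0.98.

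The upstream sequences of members of both patterns are shown for the letters they share. RefSeq start sites of GRCm38.p6 were matched by symbol for 7 of the 9 genes, and the 250 bases before the start were searched on both strands. The consensus of Gli proteins, GACCACCCA, had no match in any of the 7, nor with 1 mismatch, where 0.225% and 5.79% of 32851 promoters of that length had one. Its inner 6 letters, CCACCC on either strand, were present in 5 of 7, in Ihh, Smo, Gli2, Gli3 and Hhip, and in 28.1% of all promoters. Such short GC-rich letters are shared with the sites of other factors, and a match is a description of the letters only. In the 4 sequences below, 5′ to 3′, capitals mark those 6 letters.
Hhip (chr8:80058009-80058258, minus strand): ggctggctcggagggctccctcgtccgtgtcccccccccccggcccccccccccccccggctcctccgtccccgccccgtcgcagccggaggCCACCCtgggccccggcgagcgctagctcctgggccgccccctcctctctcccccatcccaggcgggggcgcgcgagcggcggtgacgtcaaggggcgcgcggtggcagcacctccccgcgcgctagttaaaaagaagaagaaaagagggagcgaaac
Gli3 (chr13:15463473-15463722, plus strand): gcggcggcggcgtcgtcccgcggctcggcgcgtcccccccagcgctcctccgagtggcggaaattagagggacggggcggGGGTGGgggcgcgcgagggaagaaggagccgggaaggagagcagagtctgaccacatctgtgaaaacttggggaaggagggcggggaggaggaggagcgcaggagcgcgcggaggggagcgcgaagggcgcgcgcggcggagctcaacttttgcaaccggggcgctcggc
Gli2 (chr1:119053620-119053869, minus strand): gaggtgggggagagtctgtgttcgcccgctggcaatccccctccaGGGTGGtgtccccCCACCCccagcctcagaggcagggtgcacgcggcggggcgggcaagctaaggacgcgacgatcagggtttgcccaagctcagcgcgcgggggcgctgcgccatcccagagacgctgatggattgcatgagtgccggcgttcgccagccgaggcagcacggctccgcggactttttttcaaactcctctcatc
Smo (chr6:29735247-29735496, plus strand): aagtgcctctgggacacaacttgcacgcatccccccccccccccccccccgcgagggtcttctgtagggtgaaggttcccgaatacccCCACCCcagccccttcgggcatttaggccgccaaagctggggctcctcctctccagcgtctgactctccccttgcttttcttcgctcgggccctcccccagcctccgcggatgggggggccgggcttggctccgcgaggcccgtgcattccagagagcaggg

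Shown this way, the Gli2 window holds 2 matches and each of the other 3 windows holds 1, so both patterns include promoters with these letters. GC content was 76% for Hhip and 72.8% for Gli3. It was 67.2% for Gli2, 68.4% for Smo and 78.4% for Ptch1, whose window held no match. GC content thus did not separate the patterns. Array probes measure the transcript, and no measurement here was made at these promoters.

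Sufu, the inhibitor that holds Gli proteins in the cytoplasm, had the narrowest range of ratios beside Ihh. Its log2 ratio lay between -0.55 and -0.29 on the 12 arrays, a range of 0.26. The Cy5 level was low (6.77 to 7.09), where the offset of the background correction squeezes ratios, so a change in Sufu could be understated. A second probe, also dim (6.64 to 7.25), ranged from -0.15 to 0.39. Neither probe followed the 3-array pattern of Shh and Gli1.

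For the comparison of treatment levels, clp was set against no named treatment over 4 pairs of matched genotype and day. Hhip and Gli3 rose in clp, and the other 7 genes did not pass the test. Hhip was 1.32 ± 0.28 higher (log2 difference ± SE; adjusted p = 0.0221), with all 4 clp arrays above all 4 arrays without a named treatment. Its pairs differed by 0.50 to 2.11. Gli3 was 0.85 ± 0.21 higher (adjusted p = 0.0323), higher in 3 of 4 pairs, with the Eng+/- pair at 90 d at -0.10, and it missed the threshold with median centring (0.86, adjusted p = 0.105) and on Cy5 alone (0.79, adjusted p = 0.0584). Adjusted p-values are from limma with the Benjamini-Hochberg method over all features, two-sided, with a threshold of 0.05. The SE and p-values of treatment comparisons do not cover variation between slides.

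At that threshold 16.4% of the 25085 features were called in clp, 9.68% higher and 6.75% lower, beside which 2 of 9 members stood higher and 0 lower. The median difference of the 9 genes was 0.262 and that of all features 0.014. Centring each array on its median in place of loess called 6.67% of the features, and 48.2% of the calls were then higher where 58.9% were in the reported fit. Shh, at background on 1 of the 4 arrays without a named treatment, differed by 0.57 ± 0.28 (adjusted p = 0.19) in its squeezed ratio, and Gli1 by 0.62 ± 0.36 (adjusted p = 0.255). On the authors' processed signals Shh differed by 1.03. Gli2 differed by 0.16 ± 0.16 (adjusted p = 0.514), and by -0.02 on the processed signals and -0.34 on Cy5 alone. Ptch1 differed by 0.26 ± 0.14 (adjusted p = 0.203), in the same direction in 4 of 4 pairs, and by 0.90 on the authors' processed signals (adjusted p = 0.0415) and 0.48 on Cy5 alone (adjusted p = 0.0309).

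Markers of other cell types separated clp from no named treatment too. The mean log2 ratio of the 2 macrophage genes was -1.97 to -0.81 in clp and 0.41 to 0.91 with no named treatment, and that of the 4 sebaceous genes -0.98 to -0.48 against -0.24 to 0.43. The 3 adipocyte genes averaged -0.44 to 0.10 in clp against 0.45 to 0.77, and the 5 fibroblast genes, which met at their edges, -1.28 to -0.47 against -0.47 to 0.58. The hair matrix, melanocyte and cell cycle lists had higher values in clp with some overlap, the last at 0.11 to 1.20 against -0.45 to 0.33. The part of these lists in the calls of Hhip and Gli3 was not tested.

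Both calls in clp depended on single arrays. For Hhip the adjusted p was 0.0745 without the wt array with no named treatment at 50 d, 0.0662 without wt clp at 90 d and 0.0863 without wt clp at 50 d. Gli3 passed in 2 of the 12 fits that left out 1 array, those without the Eng+/- array at 90 d of either level, and its difference ran from 0.60 to 1.10 over the 12. Gli1 passed without the wt array with no named treatment at 90 d (1.10, adjusted p = 0.0223). Without both wt arrays whose titles say pool, Hhip differed by 0.91 (adjusted p = 0.158) and Gli3 by 0.55 (adjusted p = 0.245). The second Hhip probe gave 0.53 ± 0.21 (adjusted p = 0.108).

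Against tpa, clp had higher mean ratios for Shh, Ptch1, Smo and the 3 Gli genes and Hhip, but 0 of 9 genes passed after adjustment, where 7.21% of all features did. The members' median was 0.450 against 0.036 for all features. An unadjusted p under 0.05 in limma was reached by 6 of 9 members and by 5878 of the 25085 features. Gli1 differed by 1.24 ± 0.36 (adjusted p = 0.0816), in 4 of 4 pairs and with no overlap between the levels. Ptch1 differed by 0.45 ± 0.14 (adjusted p = 0.0887) and by 1.14 on the authors' processed signals (adjusted p = 0.0352). Shh was at background on 2 of the 4 tpa arrays, and its fitted ratio difference of 0.81 ± 0.28 sets them at their measured dim signal. The difference was 0.83 ± 0.28 for Hhip, 0.57 ± 0.21 for Gli3, 0.45 ± 0.16 for Gli2 and 0.29 ± 0.15 for Smo. On the processed signals it was 0.84 for Gli2 (adjusted p = 0.0894). The Eng+/- array with no named treatment at 90 d is in neither level but enters the spread. Without it Gli1 passed with the same difference (adjusted p = 0.00892). Leaving out the wt array of that pair in its place gives the same difference and error by construction, so it is no separate check. Without both arrays titled pool, Gli1 (adjusted p = 0.00595) and the Shh ratio (adjusted p = 0.0302) passed. Without Eng+/- clp at 90 d, Hhip (1.11, adjusted p = 0.0386) and Gli3 (0.82, adjusted p = 0.0243) passed.

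Tpa against no named treatment called 0 features of 25085, 0% of them, while 6117 had an unadjusted p under 0.05, none of them a member. The Gli1 difference of -0.62 ± 0.36 joined pairs from -2.30 to 1.54. Smo differed by -0.26 ± 0.15, Gli2 by -0.29 ± 0.16, Ptch1 by -0.19 ± 0.14, Gli3 by 0.28 ± 0.21 and Hhip by 0.48 ± 0.28. Gli2 differed by -0.86 on the processed signals (adjusted p = 0.123) and -1.05 on Cy5 alone (adjusted p = 0.0822), and Hhip by 0.94 on the processed signals (adjusted p = 0.203). Without the Eng+/- array with no named treatment at 90 d, Gli1 (-1.10, adjusted p = 0.012) and Smo (-0.45, adjusted p = 0.0187) passed.

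**Figure D3:**
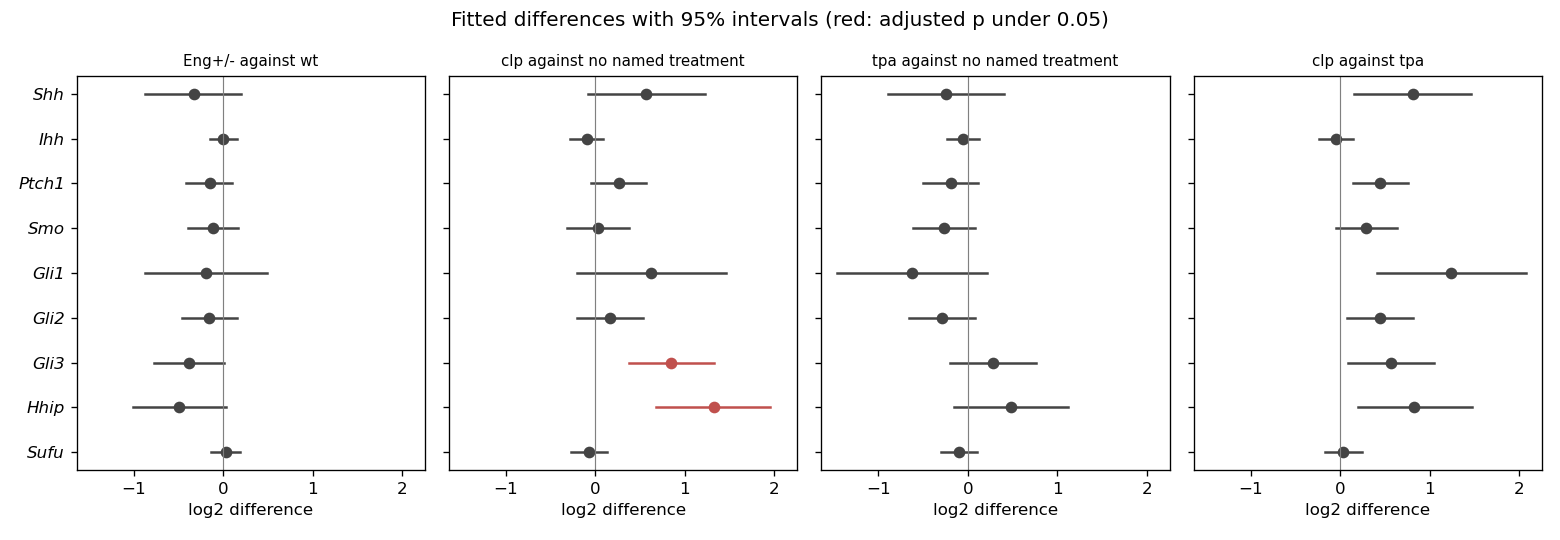
Fitted log2 differences of the 9 genes in 4 comparisons, with 95% intervals as lines (x axis, log2 difference; y axis, gene; red where the adjusted p was under 0.05). Only Hhip and Gli3 in clp against no named treatment pass; the intervals of Ihh and Sufu are the narrowest in each panel, and those of Shh include up to 3 arrays at background.

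Within tpa, Gli1, Gli3 and Hhip had higher ratios at 90 d than at 50 d in both genotypes, as did Shh by the bounds given above. Each day had only 2 arrays, and a lack of overlap does not set these genes apart. The days did not overlap for Ptch1, Smo, Gli2 and the nearly flat Ihh (-0.07) either. The differences were 1.32 ± 0.51 for Gli1, 1.00 ± 0.29 for Gli3 and 1.38 ± 0.39 for Hhip. Their unadjusted p-values in limma were 0.0328, 0.00897 and 0.00748. After adjustment 0 of 9 passed (smallest adjusted p = 0.892), as did 0 of all features, of which 1239 had an unadjusted p under 0.05. Gli2 differed by 0.44 ± 0.23, Smo by 0.37 ± 0.21 and Ptch1 by 0.31 ± 0.19, each higher at 90 d in 2 of 2 pairs. The second Smo probe gave 0.03 ± 0.29, higher at 90 d in Eng+/- and lower in wt. On the authors' processed signals, which carry no offset, the differences were 1.50 for Ptch1 and 1.02 for Gli2, with adjusted p-values of 0.583 and 0.856.

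With no named treatment the days gave opposite orders in the genotypes for Gli1, Shh, Smo and, by a step of 0.02 in wt, Gli2. The second Smo probe did not: it was lower at 90 d in Eng+/- (-2.49 against -1.97) and in wt (-2.06 against -1.94). From 50 d to 90 d Gli1 differed by -2.33 in Eng+/- and by 0.40 in wt. Ptch1 was lower at 90 d in both genotypes, with differences of -0.28 in Eng+/- and -0.35 in wt. Hhip differed by -0.24 and -0.04, and Gli3 by 0.16 and 0.10. The fitted differences were -0.97 ± 0.51 for Gli1, -0.40 ± 0.23 for Gli2 and -0.31 ± 0.19 for Ptch1, with 0 of 9 genes and 0 of all features past the threshold (1147 features with an unadjusted p under 0.05, 0 of them members). Gli2 differed by -1.51 on the processed signals (adjusted p = 0.53). Without the wt array at 90 d, Gli1 differed by -1.93 (adjusted p = 0.0297). In clp, Hhip differed by -0.40 ± 0.39 and Gli3 by -0.49 ± 0.29 between 90 d and 50 d, lower at 90 d in 2 of 2 pairs, with 0 members and 0 features called (920 features with an unadjusted p under 0.05, 0 of them members).

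The interaction of day with treatment had unadjusted p-values of 0.039 for Gli1, 0.0203 for Gli3 and 0.0244 for Hhip. None passed after adjustment (0.764 to 0.775 for these 3), and 0 of all features did, with 1586 at an unadjusted p under 0.05. This test was added after the values had been seen.

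The comparison of genotypes asks whether the loss of 1 copy of Eng goes with other levels of these genes. Over the 6 pairs the fitted mean was lower in Eng+/- for Shh, Ptch1, Smo, Hhip and the 3 Gli genes (Gli2 was 0.07 higher on the backgrounds as deposited, and Gli1 0.13 higher without either array of the pair with no named treatment at 90 d), and 0 of 9 genes passed the test. The members' median was -0.156 and that of all features 0.003. Hhip differed by -0.49 ± 0.23 (adjusted p = 0.555) and Gli3 by -0.38 ± 0.17 (adjusted p = 0.55), each lower in 5 of 6 pairs. Shh, with 2 of 6 Eng+/- arrays and 1 of 6 wt arrays at background, differed by -0.33 ± 0.23 in its ratio and by -0.64 ± 0.40 on Cy5 alone, and Ptch1 by -0.15 ± 0.11 (-0.27 on the processed signals). Gli2 differed by -0.16 ± 0.13 (-0.42 on the processed signals), and Gli1 by -0.19 ± 0.30 with pairs from -1.79 to 0.93. Of all features 0 were called, with 2301 at an unadjusted p under 0.05, 0 of them members.

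The genotype differences of Hhip and Gli3 were largest in the clp pairs. There the Hhip difference of Eng+/- from wt was -1.42 at 90 d and -1.19 at 50 d. With no named treatment the Hhip differences were -0.05 at 90 d and 0.15 at 50 d, and in tpa -0.01 and -0.44. For Gli3 they were -1.21 and -0.74 in clp, 0.05 and -0.01 with no named treatment, and -0.16 and -0.23 in tpa. The interaction of genotype with treatment had an unadjusted p of 0.0094 for Hhip and 0.0157 for Gli3, and an adjusted p of 0.99 for both. Over all features 0 passed, with 1177 at an unadjusted p under 0.05. The cell cycle list, whose mean ratio correlated with Hhip at 0.93 over the 12 arrays and with Gli3 at 0.90, was 0.11 in Eng+/- and 0.9 in wt at 90 d and 0.56 and 1.2 at 50 d in the 2 clp pairs. The skeletal muscle list stood the other way there, at 1.12 in Eng+/- against -0.08 in wt at 90 d, with 1.32 against -0.22 at 50 d. For melanocyte genes the 90 d pair stood at -0.46 in Eng+/- and 0.78 in wt, and the 50 d pair at 0.60 in Eng+/- and 1.36 in wt. Hair matrix genes averaged -0.74 in Eng+/- against 0.37 in wt at 90 d, and 0.36 against 0.62 at 50 d. The part of these lists was not tested. The median Cy5 signal of the clp arrays was 236 in Eng+/- against 446 in wt at 90 d, and 186 against 476 at 50 d. With no named treatment it was 502.5 against 197 at 90 d and 153 against 192 at 50 d. In tpa it was 492 against 427 at 90 d and 372.5 against 360 at 50 d. The part of this signal level in the genotype differences was not tested.

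For Gli1 the largest genotype difference was with no named treatment at 90 d, at -1.79 with Eng+/- lower, where Shh was at background in Eng+/- and has the bound given above. In the same treatment level at 50 d both were higher in Eng+/-, Gli1 by 0.93 and the Shh ratio by 0.67. In clp the Shh ratio differed by -0.89 at 90 d and -0.50 at 50 d, and in tpa at 90 d by 0.05. The median Cy5 signals given above differed most with no named treatment at 90 d and in clp, and their part was not tested. The interaction of genotype with day had an adjusted p of 0.819 for Gli1, with 0 features called and 1405 at an unadjusted p under 0.05.

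**Figure D4:**
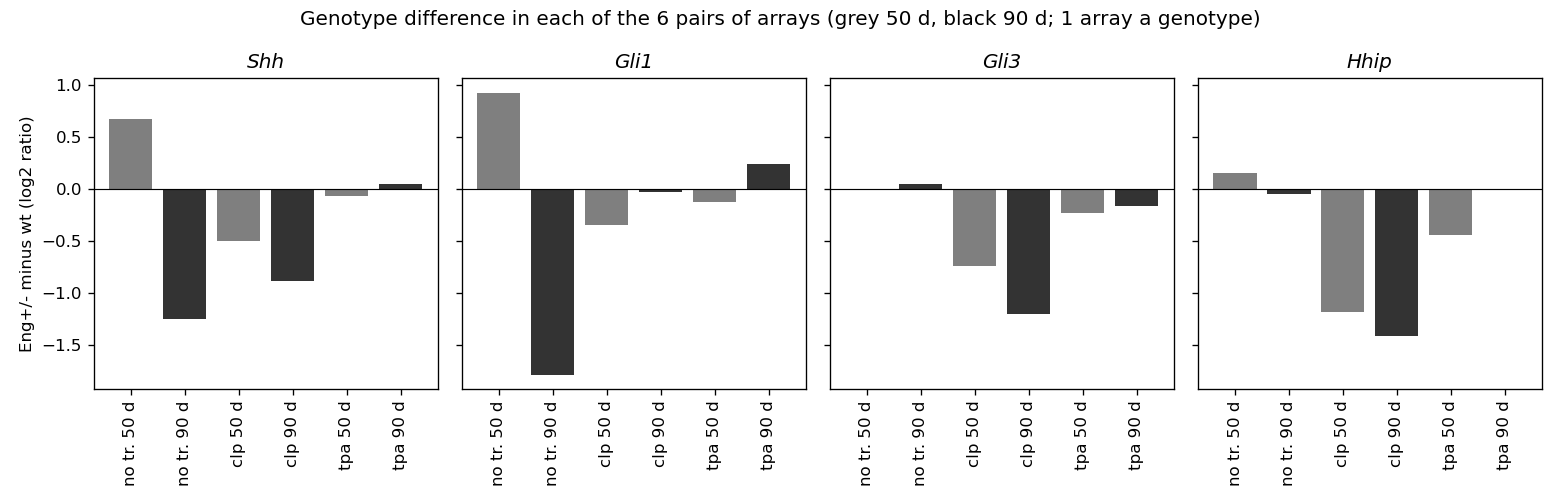
Difference of Eng+/- minus wt in log2 ratio for Shh, Gli1, Gli3 and Hhip in each of the 6 pairs (x axis, treatment level and day; 1 array a genotype, so no error bar). Gli3 and Hhip are lowest in both clp pairs, at -0.74 or below, whereas Gli1 runs from -1.79 to 0.93 with no named treatment; Shh was at background in Eng+/- in the pair with no named treatment at 90 d and in both genotypes in tpa at 50 d.

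Of the wider pathway, 36 of 37 listed genes were tested. In clp against no named treatment 4 rose and 5 fell, beside 9.68% and 6.75% of all features, and the median of the list was -0.037. Mycn, a growth-promoting target of the pathway, was 1.56 ± 0.38 higher (adjusted p = 0.0312). Kif3a, a motor subunit needed to build the cilium, was 0.65 ± 0.17 higher (adjusted p = 0.0409), and Dyrk2, a kinase that acts on Gli proteins, 0.39 ± 0.09 higher (adjusted p = 0.0292). Gas1, a co-receptor that binds Shh, differed by -1.05 ± 0.28 (adjusted p = 0.0401), and Grk2, a kinase of Smo, by -0.38 ± 0.10 (adjusted p = 0.0408). Igfbp6, a secreted binder of insulin-like growth factors, differed by -1.08 ± 0.17 (adjusted p = 0.013), lower in 4 of 4 pairs and with no overlap. The 7 tested targets thus held 1 gene that rose and 1 that fell. Of the 12 fits that left out 1 array, 12 kept the call of Igfbp6, 6 that of Mycn, 5 that of Dyrk2, 2 each those of Kif3a and Grk2, and 1 that of Gas1. Of 11 other settings, 9 kept Igfbp6 and Gas1, 10 Mycn, 6 Dyrk2 and Kif3a, and 5 Grk2, with Dyrk2 at 0.16 on Cy5 alone (adjusted p = 0.502).

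Against tpa, 2 of the 36 were higher in clp and 2 lower, where 3.19% and 4.01% of all features were, and the list's median was 0.159. Mycn was 1.60 ± 0.38 higher (adjusted p = 0.043) and Ccnd2, a cyclin of the G1 phase, 0.62 ± 0.15 higher (adjusted p = 0.049). Igfbp6 differed by -1.11 ± 0.17 (adjusted p = 0.015) and Cdon, a co-receptor, by -0.76 ± 0.19 (adjusted p = 0.0489). Of the 12 fits that left out 1 array, 8 kept Igfbp6, 5 Mycn, 3 Cdon and 2 Ccnd2, and of 11 other settings 11, 10, 5 and 4. Both contrasts use the same 4 clp arrays. In the fits that left out 1 array, between 0 and 6 of the 36 were higher and between 1 and 7 lower against no named treatment, and between 0 and 2 and between 0 and 2 against tpa. The genotype, tpa and day comparisons called 0 of the 36.

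**Figure D5:**
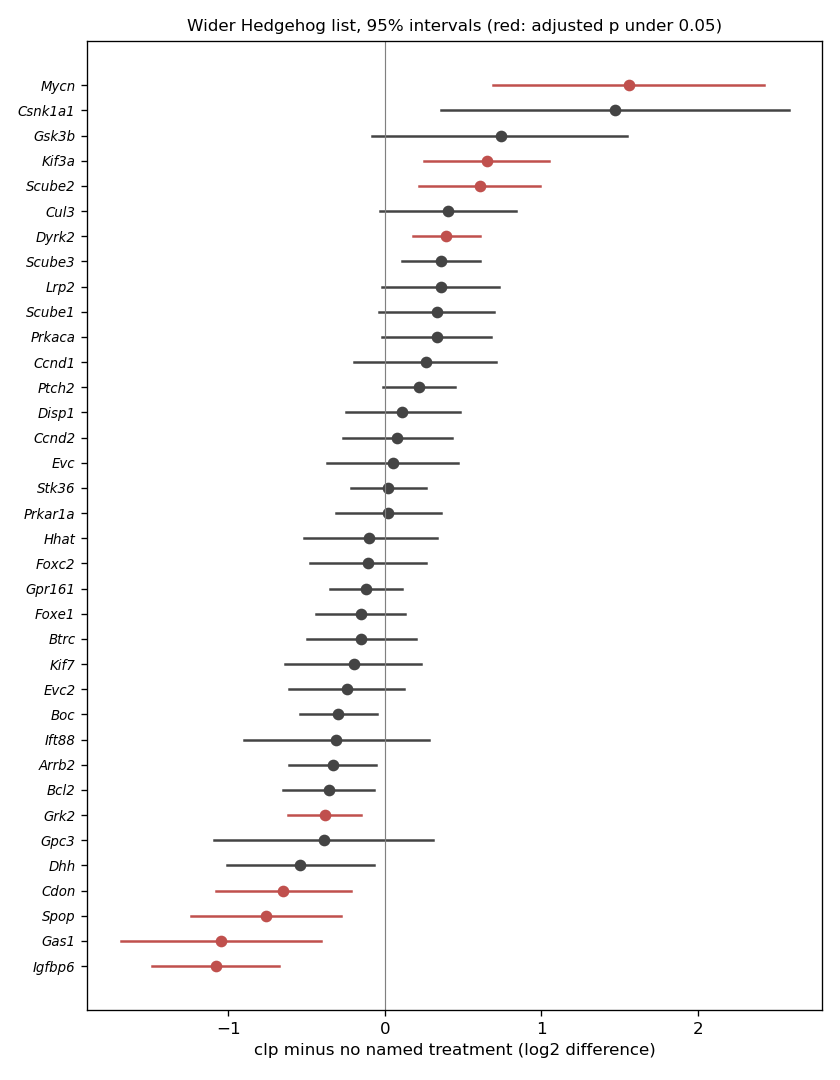
Log2 difference of clp minus no named treatment for the 36 tested genes of the wider list, sorted by size, with 95% intervals as lines (red where the adjusted p was under 0.05). The points lie on both sides of 0, with Mycn at 1.56 and Igfbp6 at -1.08 among the largest.

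The features most like each gene over the 12 arrays were ranked by Pearson r among 17166 other features with a symbol. Hhip was closest to Plk1 (r = 0.979), a mitotic kinase, Slc7a1 (0.979), an amino acid transporter, and Gli3 (0.978). Gli3 was closest to Hhip, Cand1 and Sipa1l1 (0.976 for the latter pair). Gli1 was closest to Adamts17 (0.967), Lrfn4 (0.959) and Cdca2 (0.952). Smo was closest to Rrm2 (0.973), Gm5643 and Nasp, and Gli2 to Nectin2 (0.961), Hes1 (0.961) and Rrm2 (0.958), where Rrm2 and Nasp serve DNA synthesis. Ptch1 was closest to Tgfa (0.949), Eif4g1 and Mark4. Sufu and Ihh, whose squeezed ratios hardly varied, were closest to Sin3a (0.927) and Cryzl1 (0.917). Shh, for which 9 arrays were above background and which was ranked after its values were seen, was closest to Etv4 (0.976), Mns1 (0.974) and Dlx2 (0.971). Values of r above 0.9 were common, with 209 such features for Hhip and 68 for Gli1, and without both arrays farthest from the median the r of Hhip with Plk1 was 0.955 and that of Gli1 with Adamts17 0.932.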

How the data were processed

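Total RNA of 12 samples (2 genotypes, 2 days, 3 treatment levels, 1 array each) was measured on 3 slides of 4 two-channel arrays of the 4x44K mouse format. The deposited scanner files hold foreground and background intensity per spot in both channels. The processed signals were background-subtracted and dye-normalised by the authors, per the file headers, and their deposited log10 ratio of processed Cy5 over Cy3 was used, turned to log2, as an alternative. Agilent Feature Extraction is version 10.7.3.1 per the file headers and 10.0 per the submitters' processing notes.

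Median intensities were corrected with normexp (offset 50) and loess in limma 3.58.1 (R 4.3.3), control spots having weight 0. In some channels, up to 5 spots with a local background above their own signal pulled the normexp mean far below 0 (to -545 on 1 array); their background (35 values in all) was replaced by the median background of the array, a step chosen after the data were seen. Spots with outlier flags were left out and spots of a probe averaged. A probe counted as above background on an array where at least 50% of its spots were, and it was tested if so on 2 or more arrays. A gene was represented by its brightest probe on average, which gave 25085 features.

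A limma model (eBayes with trend) of genotype and the 6 combinations of treatment and day left 5 residual degrees of freedom, and one that added every 2-way interaction left 2. P-values are two-sided, with Benjamini-Hochberg adjustment over all features, and it is assumed that single arrays vary alike. The number of arrays limits the precision. Named are all 9 members, at most 6 genes of the wider list past the threshold in each comparison, and the 3 features most like each member. The members and lists were chosen with earlier results of these data known. Alternatives were the offset, the processed signals, median centring, Aquantile, Cy5 alone, 2 other filters, single probes, eBayes without trend and leaving out arrays.

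The labels are at odds in several points. The series text describes dye swaps and Cy3-labelled wt RNA, whereas the labels of each array give a Cy3 pool, and the arrays were read by the latter. The array annotation is of mm9 per the file headers, and the RefSeq tables are of GRCm38.p6, so gene positions are not given beyond the RefSeq promoters.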

Additional observations from a re-analysis of the deposited data

How the results depend on the processing

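With 1 array a group, every test rests on few residual degrees of freedom. The dim reference signal of Shh and Ihh and the dim Cy5 signal of Ptch1 and Sufu limit their ratios. The labels carry no replicate numbers to block on, and the model pairs the genotypes within matched treatment and day. Of the members, Hhip and Gli3 (2 genes) were called in clp against no named treatment; the count was 3 on the processed signals, where Ptch1 joined them, 2 on Cy5 alone, where Ptch1 stood in place of Gli3, 1 with median centring and 0 without both wt arrays titled pool, and 0 to 2 when 1 array was left out. For clp against tpa it was 0, and 1 with an offset of 16, the processed signals, median centring or Cy5 alone, 2 without the pool arrays, and 0 to 2 with 1 array left out. The same range of 0 to 2 held for tpa against no named treatment. For the days with no named treatment it was 1 without the pool arrays and 0 to 1 with 1 array left out; for genotype by treatment it was 1 with median centring and 0 to 1 with 1 array left out; for day by treatment it was 1 without the pool arrays. Aquantile changes no ratio by its construction.

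Among the printed differences, the signs that turned belonged to ones that passed no test. With 1 array left out, Gli1 between genotypes ran from -0.41 to 0.13, Hhip between days in clp from -0.95 to 0.16, and Gli3 there from -0.99 to 0.01. Gli2 between genotypes was 0.07 on the backgrounds as deposited, and in clp against no named treatment it was -0.02 on the processed signals and -0.34 on Cy5 alone. Gli3 in tpa against no named treatment was -0.02 without the pool arrays. Over all features, clp against no named treatment called 4120, and 1673 with median centring, 2496 on the backgrounds as deposited and 6198 on Cy5 alone. The causes were not tested. Of 1055 refits of the 46 printed differences, 903 kept their direction and side of the threshold, 126 lost a call, 17 gained 1 and 9 changed sign. Only a called difference can lose its call, so the 126 belong to the called differences alone and not to all 46. The 903 include refits of uncalled differences and those with Aquantile, which leaves every ratio as it was.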
